A study of Sus scrofa with 30 samples.

Results

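Myelin is the lipid-rich sheath that oligodendrocytes wrap around axons. MBP (myelin basic protein) holds its membrane layers together, MAL is a membrane proteolipid of myelin that takes part in sorting membrane cargo, and OPALIN is a transmembrane protein of mature oligodendrocytes. OLIG2, a basic helix-loop-helix transcription factor, directs the formation of the oligodendrocyte lineage and stays on in its precursors and mature cells.

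These 4 genes were followed in the cerebral cortex of prepubertal farm pigs (Swedish triple breed, both sexes, 12 to 14 weeks old, anaesthetised with pentobarbital) on an Affymetrix porcine array. All probe sets annotated with MBP, MAL, OPALIN or OLIG2 as their single gene symbol were taken. They were 9 of the 23999 probe sets on the array that are not controls, and 4 of the 6765 genes named by a single symbol. MBP had 4 probe sets, OLIG2 had 3, and MAL and OPALIN had 1 each. Probe sets of the same gene share its symbol in the annotation and were described separately. Where a gene had several they are lettered here in order of mean level. MBP probe sets A to D are Ssc.4876.1.A1_at, Ssc.19359.1.A1_at, Ssc.19359.2.S1_at and Ssc.13952.1.A1_at. OLIG2 probe sets A to C are Ssc.8174.1.A1_at, Ssc.21792.2.S1_at and Ssc.21792.1.A1_at, and MAL and OPALIN are Ssc.17204.1.S1_at and Ssc.585.2.S1_a_at. Of the 9, 7 passed the filter on low values (a mean of at least about 29.5) and were tested. MBP probe set D and OLIG2 probe set C did not pass it.

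The series held 30 arrays in 10 groups of 3, each called a biological replicate in the labels. In all animals ventricular fibrillation was induced electrically. Animals of 6 groups lay in arrest for 12 min, had chest compressions for 8 min and a countershock, and gave cortex once the circulation had been restored (ROSC) for 30, 60 or 180 min. Groups MB30, MB60 and MB180 received methylene blue at 7.5 mg/kg/h in saline, and groups SAL30, SAL60 and SAL180 received the same saline at 55 mL/kg/h without the dye. Either infusion began 1 min into chest compressions and ran until 50 min after ROSC, so the 60 and 180 min groups were sampled once it had ended. Methylene blue accepts and passes on electrons, and blocks nitric oxide signalling through guanylate cyclase. The other 4 groups were not resuscitated, and the brain was removed 0 (CA0), 5 (CA5), 20 (CA20) or 30 min (CA30) after arrest. CA0 is labelled an untreated cardiac arrest control at 0 min. By this description its animals had also been anaesthetised and fibrillated, with 0 min in arrest, and none of the 10 groups was described as free of fibrillation.

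The deposited values are scaled intensities in arbitrary units. Median intensity per array ran from 97.6 to 108 in the MB groups, 87.0 to 105 in the SAL groups and 88.0 to 97.7 in the CA groups. The 3'/5' ratio of the control transcripts, a measure of how far cRNA reached the 5' end, also differed by group. On the log2 scale it ran from 0.71 to 1.35 in the MB groups, 0.98 to 2.60 in the SAL groups and 1.07 to 2.71 in the CA groups. It exceeded 2 on 4 arrays, CA20 replicates 2 and 3, SAL60 replicate 2 and SAL180 replicate 3.

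**Figure D1:**
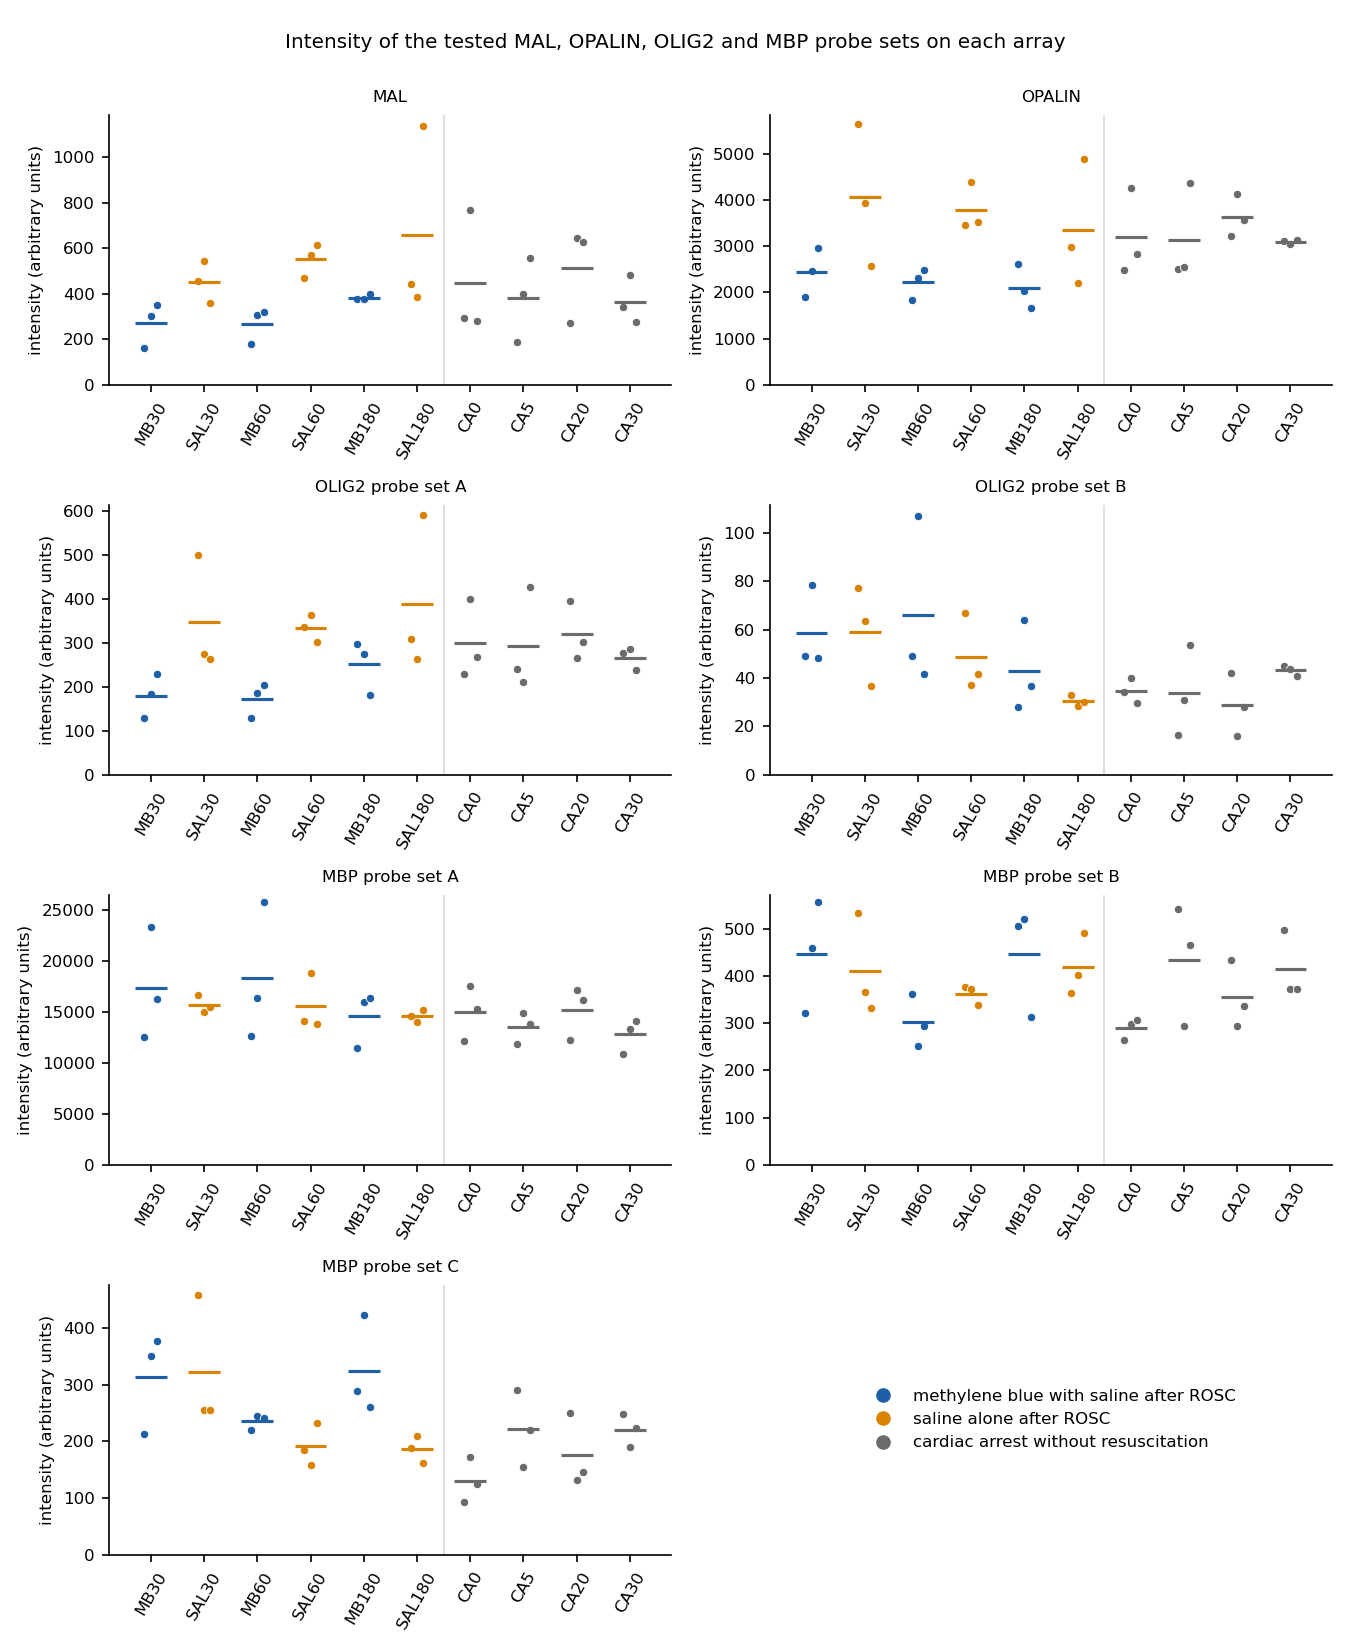
Intensity (arbitrary units, linear axis from 0) of the 7 tested probe sets on each of the 30 arrays; each point is an array and each bar the mean of the 3 arrays of a group. MAL, OPALIN and OLIG2 probe set A lay lower in the MB groups than in the SAL groups of the same time, with overlap at 180 min and, for OPALIN, also at 30 min, while MBP probe set C was lowest in CA0.

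MAL, OPALIN and 1 of the 2 tested OLIG2 probe sets were lower in cortex of pigs given methylene blue than in pigs given saline alone, when the difference was averaged over the 3 times after ROSC. The mean difference was -0.79 ± 0.24 for MAL, -0.69 ± 0.16 for OPALIN and -0.77 ± 0.17 for OLIG2 probe set A (log2, SE), or 0.580, 0.619 and 0.587 times the saline level. The adjusted p (limma, Benjamini-Hochberg over all 16799 tested probe sets) was 0.0178 for MAL, 0.0027 for OPALIN and 0.0021 for OLIG2. With adjustment over all comparisons the MAL call was lost (adjusted p = 0.0653), and without SAL180 replicate 3 it stood at -0.63 with an adjusted p of 0.0499. These 3 of 7 probe sets are to be read against 25.2% of all tested probe sets that passed in this comparison. None of the 3 tested MBP probe sets passed. Their mean differences were 0.09 ± 0.13, -0.03 ± 0.13 and 0.33 ± 0.15 for A, B and C (log2, SE), with adjusted p of 0.648, 0.897 and 0.117. With array weights MBP probe set C passed as higher (0.40, adjusted p = 0.0407). The lowest, median and highest of the 9 MB arrays were 1659, 2318 and 2958 for OPALIN, against 2211, 3528 and 5659 on the 9 SAL arrays.

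For OPALIN, which marks mature oligodendrocytes, the MB30 arrays read 1895, 2455 and 2958, against 5659, 3948 and 2572 on the SAL30 arrays. At 60 min the values were 1842, 2318 and 2495 in MB60, against 3464, 4402 and 3528 in SAL60. At 180 min they were 2618, 2035 and 1659 in MB180, against 2984, 2211 and 4887 in SAL180. All MB60 arrays lay below all SAL60 arrays, while the groups overlapped at 30 and 180 min. SAL30 replicate 1 (5659) was the highest of its group, and the 30 min difference rests in part on it. SAL180 replicate 3 (4887), with a 3'/5' ratio of 2.60, stood far above its group, so the 180 min difference rests in part on that array. Over the 3 times the difference was -0.68, -0.77 and -0.62 ± 0.27 (log2, SE), with adjusted p of 0.147, 0.141 and 0.224.

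For OLIG2 probe set A the MB30 arrays read 128, 183 and 229, against 499.9, 275 and 264 on the SAL30 arrays. At 60 min the values were 129, 186 and 205 in MB60, against 336, 363 and 303 in SAL60. At 180 min they were 297, 274 and 181 in MB180, against 308, 262 and 591 in SAL180. The groups did not overlap at 30 and 60 min, and overlapped at 180 min. SAL30 replicate 1 (499.9) stood far above its group, and the 30 min difference rests in part on it. SAL180 replicate 3 (591) stood far above its group here too, and the 180 min difference rests largely on it. The difference was -0.86 ± 0.29, -0.91 ± 0.29 and -0.54 ± 0.29 (log2, SE) at 30, 60 and 180 min, with adjusted p of 0.0890, 0.111 and 0.333.

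For MAL the MB30 arrays read 163, 304 and 349.6, against 455, 544 and 358 on the SAL30 arrays. At 60 min the values were 179, 307 and 320.5 in MB60, against 469, 571 and 615 in SAL60. At 180 min they were 376, 375 and 399 in MB180, against 445, 386 and 1140.0 in SAL180. The arrays separated at 30 and 60 min. At 180 min MB180 was narrow while SAL180 replicate 3 stood far above its group, and the 180 min difference rests largely on that array. The difference was -0.74 ± 0.41, -1.03 ± 0.41 and -0.58 ± 0.41 (log2, SE), with adjusted p of 0.303, 0.194 and 0.475.

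No member passed at a single time. In MB30 against SAL30, 0 of 7 passed in limma and 2 had an unadjusted p under 0.05, beside 4.09% of all probe sets that passed. In MB60 against SAL60 the counts were 0 and 3, beside 1.52%, and in MB180 against SAL180 0 and 2, beside 1.9%. The arrays of the compared groups separated for 2 members at 30 min, 3 at 60 min and 1 at 180 min, which is to be read against 22.4%, 22.5% and 21.7% of all tested probe sets. The difference did not pass the test of varying between times for any member (adjusted p = 0.999903 for each, 0 of 7 at an unadjusted p under 0.05, 0% of all probe sets passing and 483 of them at an unadjusted p under 0.05). In bulk tissue, fewer oligodendrocytes and less of these RNAs per cell cannot be told apart, and the labels do not say how much white matter each piece held.

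**Figure D2:**
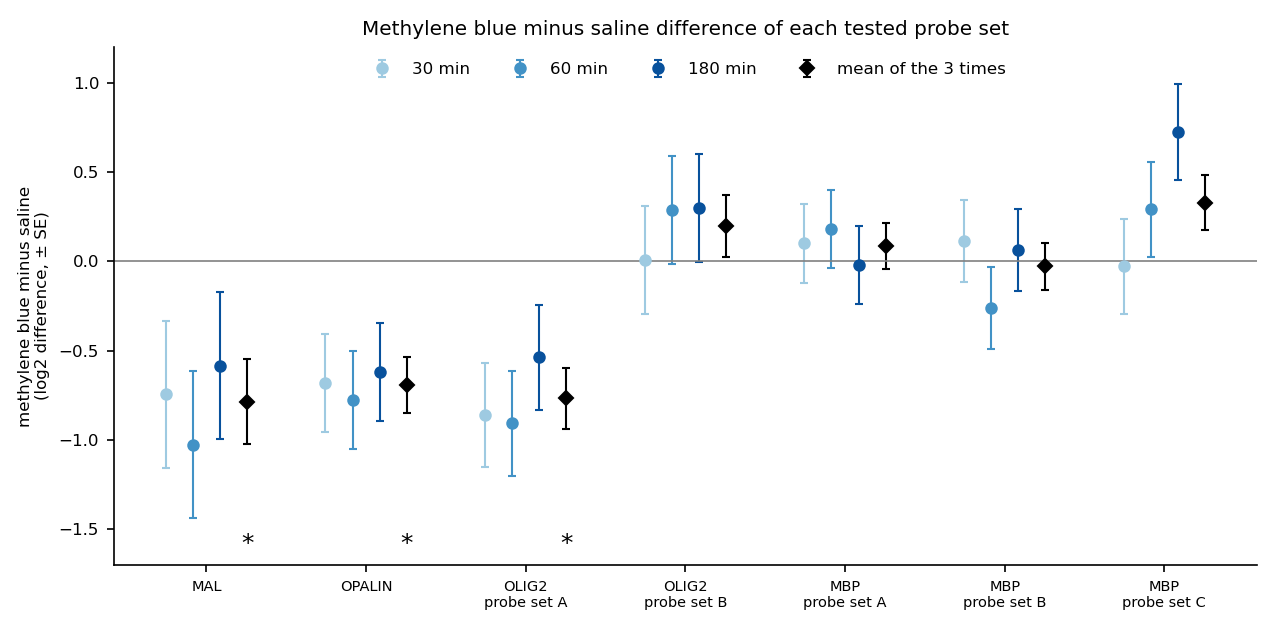
Methylene blue minus saline difference (log2, y axis) of each of the 7 tested probe sets at 30, 60 and 180 min and as the mean of the 3 times; bars are standard errors of the limma fit and asterisks mark an adjusted p below 0.05. The means of MAL, OPALIN and OLIG2 probe set A lay at -0.79, -0.69 and -0.77, and the other 4 means between -0.03 and 0.33.

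The second tested OLIG2 probe set did not pass in this comparison. OLIG2 probe set B was dim, at 28.2 to 107 on the MB arrays and 28.3 to 77.2 on the SAL arrays, and its mean difference was 0.20 ± 0.18 (log2, SE, adjusted p = 0.432). Over the 30 arrays it had a Pearson r of -0.09 and a Spearman rho of -0.07 with OLIG2 probe set A (permutation p = 0.625 and 0.727; adjusted over 21 pairs of probe sets, 0.82 and 0.898). For deviations from the group means r was 0.40 (adjusted p = 0.151). OLIG2 probe set C read 6.96 to 35 on the MB arrays and 3.08 to 37.0 on the SAL arrays, below the filter.

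The 3'/5' ratio moved with these results. MAL, OPALIN and OLIG2 probe set A had a Pearson r of 0.63, 0.56 and 0.54 with it over the 30 arrays (Spearman rho 0.56, 0.54 and 0.51; permutation p = 0.00014, 0.00131 and 0.00231 for r, and 0.00123, 0.00246 and 0.00458 for rho). Adjusted over the 14 relations computed, those p were 0.000653, 0.00458 and 0.00539 for r, and 0.0043, 0.00689 and 0.0107 for rho. OLIG2 probe set B had the opposite sign, with r = -0.55 and rho = -0.62 (permutation p = 0.00172 and 0.00033; adjusted, 0.00482 and 0.00154), and r = -0.27 for deviations from the group means (permutation p = 0.232, adjusted 0.462). Without the 2 arrays farthest from the median ratio, r was 0.48, 0.51 and 0.46 for the first 3 and -0.55 for OLIG2 probe set B. For deviations r of MAL, OPALIN and OLIG2 probe set A was 0.51, 0.43 and 0.23 (permutation p = 0.0225, 0.0114 and 0.313; adjusted, 0.0629, 0.0401 and 0.487).

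With the ratio as a covariate, all 3 calls were lost. The mean difference was then -0.36 for MAL, -0.46 for OPALIN and -0.64 for OLIG2 probe set A, with adjusted p of 0.398, 0.107 and 0.0516, and 8.67% of all probe sets passed. Without the 4 arrays with a ratio above 2, a choice made after seeing the data, the differences were -0.62, -0.55 and -0.63. OPALIN and OLIG2 then passed (adjusted p = 0.0241 and 0.0157) and MAL did not (adjusted p = 0.0656), beside 15.6% of all probe sets that passed at this setting. The ratio differed between the treatments, and the parts of ratio and treatment in these differences cannot be told apart.

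**Figure D3:**
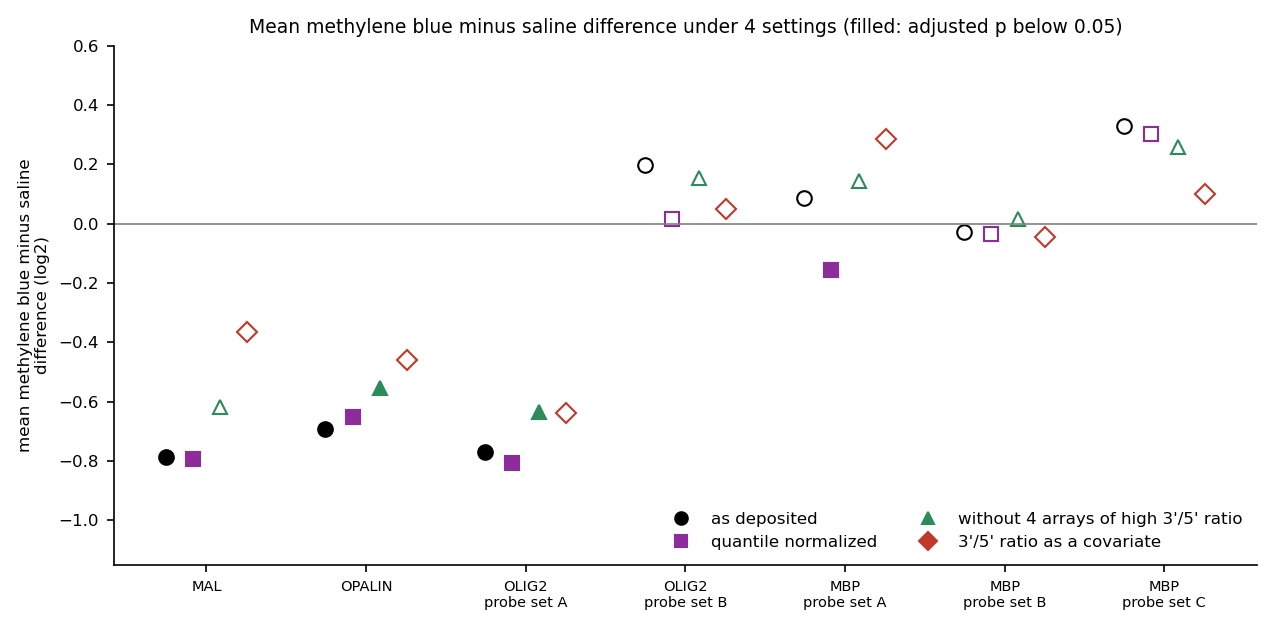
Mean methylene blue minus saline difference (log2, y axis) of each tested probe set with the deposited scaling, after quantile normalization, without the 4 arrays of high 3'/5' ratio, and with that ratio as a covariate; filled symbols have an adjusted p below 0.05. MAL, OPALIN and OLIG2 probe set A stayed below 0 in all 4, from -0.81 to -0.36, and none of them was filled with the covariate. MBP probe set A was filled, at -0.16, only after quantile normalization.

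MBP, the major structural protein of the set, was read by probe sets of which A did not move with B or C. MBP probe set A was among the brightest on the array, with a mean log2 value at the 99.98th percentile. It read 12558, 23328 and 16215 in MB30, 12654, 16400.1 and 25773 in MB60 and 11415, 15944 and 16362 in MB180. It read 16673, 14970.0 and 15452 in SAL30, 14112, 18779.8 and 13834 in SAL60 and 14632, 14018 and 15189 in SAL180. The MB arrays thus spread on both sides of the SAL arrays at every time. The mean difference was 0.09 ± 0.13 (log2, SE, adjusted p = 0.648).

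The scaling decided the sign of that MBP value. It was -0.01 after median centring and, after quantile normalization, -0.16 with an adjusted p of 0.0105 (limma). The quantile-normalized log2 values ran from 13.65 to 13.90 on the 9 MB arrays and from 13.84 to 14.10 on the 9 SAL arrays. Quantile normalization replaces each value by one set by its rank. MBP probe set A ranked 5 to 15 from the top among the 16799 tested probe sets on the MB arrays and 1 to 7 on the SAL arrays, so its normalized value rests on the few brightest probe sets. Over the 30 arrays its deposited value moved with the array's 99th percentile of intensity (Pearson r = 0.91, Spearman rho = 0.77, permutation p = 1e-05 and 2e-05; adjusted over 14 relations, 0.00014 and 0.00028). That r was 0.85 without the 2 arrays farthest from the median of the 99th percentile, and 0.92 for deviations from the group means (permutation p = 7e-05, adjusted 0.00098). The smallest p these permutations can give is 1e-05.

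MBP probe set C was higher in all 3 MB groups than in CA0. Its arrays read 213, 349.7 and 376 in MB30, 221, 245 and 242 in MB60 and 289, 423 and 259.7 in MB180, against 93.0, 173 and 126 in CA0. No MB array overlapped CA0. The share of all probe sets whose arrays separate from CA0, for this or any other group, was not counted. The difference from CA0 was 1.16, 0.82 and 1.22 ± 0.27 (log2, SE) in MB30, MB60 and MB180, with adjusted p of 0.0067, 0.0447 and 0.0060. This was 1 of 7 members in each of these comparisons, beside 12.2%, 12.5% and 9.41% of all tested probe sets that passed. All 3 comparisons share the CA0 arrays. Over the 30 arrays MBP probe set C had a median r of 0.02 with 23 other oligodendrocyte and myelin genes. It was 0.37 with smooth muscle and pericyte markers, 0.24 with meningeal and 0.21 with endothelial ones. With neuron, astrocyte, microglia and oligodendrocyte precursor markers it lay between -0.01 and 0.13. For deviations from the group means the first 4 of these medians were 0.22, 0.20, -0.01 and 0.17. Those with neuron, astrocyte, microglia and oligodendrocyte precursor markers were then -0.26, 0.22, 0.34 and 0.28.

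On the saline arrays MBP probe set C read 458, 255 and 255 in SAL30, 185, 159 and 232 in SAL60 and 188, 209.9 and 162 in SAL180. All SAL30 arrays lay above CA0, while SAL60 and SAL180 overlapped it. The difference of SAL30 from CA0 was 1.19 ± 0.27 (log2, SE) with an adjusted p of 0.0649, so it was as large as that of MB30 and did not pass. Its unadjusted p (limma) was 0.000141, beside 0.000186 for MB30, as the adjustment ran within each comparison. With adjustment over all comparisons the SAL30 difference passed (adjusted p = 0.0111). In MB180 the probe set lay above all SAL180 arrays (0.72 ± 0.27, adjusted p = 0.144).

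MBP probe set C was lower where the 3'/5' ratio was higher over the 30 arrays (Pearson r = -0.65, Spearman rho = -0.69, permutation p = 0.0001 and 5e-05; adjusted, 0.000653 and 0.00035). Without the 2 arrays farthest from the median ratio r was -0.65, and for deviations from the group means -0.45 (permutation p = 0.00933, adjusted 0.0401). The ratio was 1.66 to 1.92 in CA0, above every MB array. With the ratio as a covariate the difference from CA0 was 0.82 in MB30 and 0.52 in MB60, and neither passed (adjusted p = 0.115 and 0.319). In MB180 it was 0.96, which passed (adjusted p = 0.0419). The call of MB60 was also lost without CA0 replicate 1 or 3 or any MB60 array (adjusted p between 0.0690 and 0.185). It was lost as well with a pseudocount of 64, no filter, quantile normalization or median centring (adjusted p between 0.0528 and 0.0581). Replicate number as a block and adjustment over all comparisons also ended it (adjusted p = 0.0550 and 0.0910). The ratio moved with the groups here, and the parts of both cannot be told apart.

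MBP probe set B had its lowest group mean in CA0 too, at 289.9 ± 22.5 (SD, n = 3), and passed in no comparison. Its arrays read 323, 459 and 558 in MB30, 362, 252 and 294 in MB60 and 506, 521 and 313 in MB180. They read 533, 365 and 333 in SAL30, 376, 373 and 339 in SAL60 and 364, 402 and 491 in SAL180. The mean methylene blue minus saline difference was -0.03 ± 0.13 (log2, SE, adjusted p = 0.897), and MB and SAL arrays interleaved. The probe set moved with MBP probe set C (r = 0.65, rho = 0.57, permutation p = 0.00012 and 0.00112; adjusted over 21 pairs, 0.00063 and 0.00588). With MBP probe set A its r was -0.22 (rho = -0.26, permutation p = 0.244 and 0.171; adjusted, 0.482 and 0.399). Which part of the MBP transcripts each probe set reads is not given in the sources used here.

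Untreated arrest changed no member by the test. In CA5, CA20 and CA30 against CA0, 0 of 7 members passed in limma, and 2, 0 and 2 had an unadjusted p under 0.05, all 4 of them for MBP probe set B and MBP probe set C. Of all tested probe sets 0%, 0.0119% and 0.0119% passed, and 317, 712 and 682 had an unadjusted p under 0.05. MBP probe set C read 291, 154 and 221 in CA5, 249.9, 131 and 146 in CA20 and 248, 190.4 and 223 in CA30. MBP probe set A read 12103, 17528 and 15322 in CA0, 11872, 14892 and 13794 in CA5, 12287, 17187 and 16171 in CA20 and 10881, 13319 and 14136 in CA30, and its groups overlapped. The CA30 arrays of MBP probe set C lay above all CA0 arrays, with a difference of 0.72 ± 0.27 (log2, SE, adjusted p = 0.985).

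OPALIN read 2491, 4273 and 2826 in CA0, 2512, 2549 and 4375 in CA5, 3214, 4135 and 3578 in CA20 and 3109.8, 3048 and 3132 in CA30. MAL read 293, 767 and 278 in CA0, 190.0, 400.0 and 559 in CA5, 271, 647 and 626 in CA20 and 339.9, 482 and 276 in CA30. OLIG2 probe set A read 229, 401 and 268 in CA0, 241, 211 and 426 in CA5, 396, 266 and 301 in CA20 and 277, 285 and 237 in CA30. CA0 replicate 2 and CA5 replicate 3 were the highest of their groups for all 3 genes, and the spread within CA0 and CA5 exceeded the differences between the group means.

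After resuscitation with saline, no member passed against CA0 either. In SAL30, SAL60 and SAL180 against CA0, 0 of 7 passed in limma and 1, 0 and 1 had an unadjusted p under 0.05, beside 0.196%, 0.315% and 0.875% of all probe sets that passed. MAL had 0.16, 0.44 and 0.53 ± 0.41 (log2, SE) at the 3 times, OPALIN 0.31, 0.28 and 0.03 ± 0.27, and OLIG2 probe set A 0.18, 0.18 and 0.31 ± 0.29. In the MB groups against CA0, MAL stood at -0.59, -0.58 and -0.05 ± 0.41, OPALIN at -0.37, -0.50 and -0.59 ± 0.27, and OLIG2 probe set A at -0.68, -0.72 and -0.23 ± 0.29. None of these passed (adjusted p of 0.104 or more for OLIG2, 0.178 or more for OPALIN and 0.367 or more for MAL). The saline means of these 3 genes thus stood above the CA0 mean and the methylene blue means below it at every time, and no single one of these differences passed. Without SAL180 replicate 3 the SAL180 difference from CA0 was 0.06 for MAL, -0.27 for OPALIN and -0.03 for OLIG2 probe set A. Over all 10 groups together, 1 of 7 members passed the F test, MBP probe set C (F = 4.39, adjusted p = 0.0176), beside 15.3% of all probe sets.

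The order of the group means differed between the probe sets, and in each of them all 9 pairs of neighbouring groups overlapped. MAL and OLIG2 probe set A were highest in SAL180 and OPALIN in SAL30, and the MB groups held the 3 lowest places for OPALIN and OLIG2 probe set A. MAL was lowest in MB30. MBP probe set A was highest in MB60 and lowest in CA30. The spread within groups was widest for MAL, with a residual SD of 0.56 (log2), higher than in 96.4% of tested probe sets. OPALIN had 0.37 and OLIG2 probe set A 0.39, at percentiles 79.4 and 82.8, and MBP probe set A 0.29, at percentile 59.0.

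Array by array, OPALIN, OLIG2 and MAL moved together, with each gene represented by its brightest probe set. Over the 30 arrays Pearson's r was 0.84 for OPALIN and OLIG2, 0.73 for MAL and OLIG2 and 0.72 for MAL and OPALIN (permutation p = 1e-05, 1e-05 and 2e-05; adjusted over 6 pairs, 3e-05, 3e-05 and 4e-05). Spearman's rho was 0.84, 0.65 and 0.69 (permutation p = 1e-05, 0.00012 and 5e-05; adjusted, 6e-05, 0.00024 and 0.00015). Without the 2 arrays farthest from the median r was 0.81, 0.59 and 0.65, and without the 9 MB arrays, a choice made after seeing the data, 0.80, 0.60 and 0.69. For deviations from the group means, which remove the treatment differences, r was 0.87, 0.57 and 0.73 (within-group permutation p = 0.00017, 0.0202 and 0.00021; adjusted, 0.00063, 0.0302 and 0.00063). These probe sets of the 3 genes thus varied together between animals of the same group. SAL180 replicate 3 was the highest array of its group for all 3, at 4887 for OPALIN, 591 for OLIG2 and 1140.0 for MAL, and its 3'/5' ratio was 2.60. The dim OLIG2 probe set B had an r of -0.02 with OPALIN and -0.11 with MAL (permutation p adjusted over 21 pairs, 0.962 and 0.776). For deviations its r was 0.26 and 0.20 (adjusted p = 0.395 and 0.5).

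Over all 30 arrays on the deposited scale, no relation of MBP probe set A with the brightest probe sets of these genes passed. MBP probe set A had an r of 0.26 with MAL, 0.12 with OPALIN and -0.02 with OLIG2 (rho 0.35, 0.16 and -0.04; permutation p = 0.16, 0.527 and 0.906 for r, and 0.0597, 0.412 and 0.831 for rho). None passed after adjustment over the 6 pairs (0.241, 0.632 and 0.906 for r). After quantile normalization r was 0.73, 0.83 and 0.79 (permutation p = 1e-05 for each, adjusted 1.2e-05; rho 0.71, 0.88 and 0.79), and for deviations from the group means on that scale 0.67, 0.71 and 0.67. For deviations on the deposited scale it was 0.52, 0.33 and 0.25 (adjusted p = 0.0128, 0.0641 and 0.217). On the deposited scale r with MAL was also 0.52 without the 2 arrays farthest from the median and 0.59 without the MB arrays (adjusted p = 0.00651 and 0.00781). With OPALIN it was 0.34 and 0.54 (adjusted p = 0.0951 and 0.0139), and with OLIG2 0.23 and 0.31 (adjusted p = 0.239 and 0.17). The relation of MBP probe set A to the other genes therefore varied with the scaling and with the arrays and group means included. Among all 21 pairs of probe sets, MBP probe set C passed with the dim OLIG2 probe set B (r = 0.50, permutation p = 0.00534, adjusted 0.0224). For deviations that r was 0.35 (adjusted p = 0.257). MBP probe set B passed with OLIG2 probe set A for deviations (r = 0.63, adjusted p = 0.0242) and not over the levels (r = 0.38, adjusted p = 0.132).

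**Figure D4:**
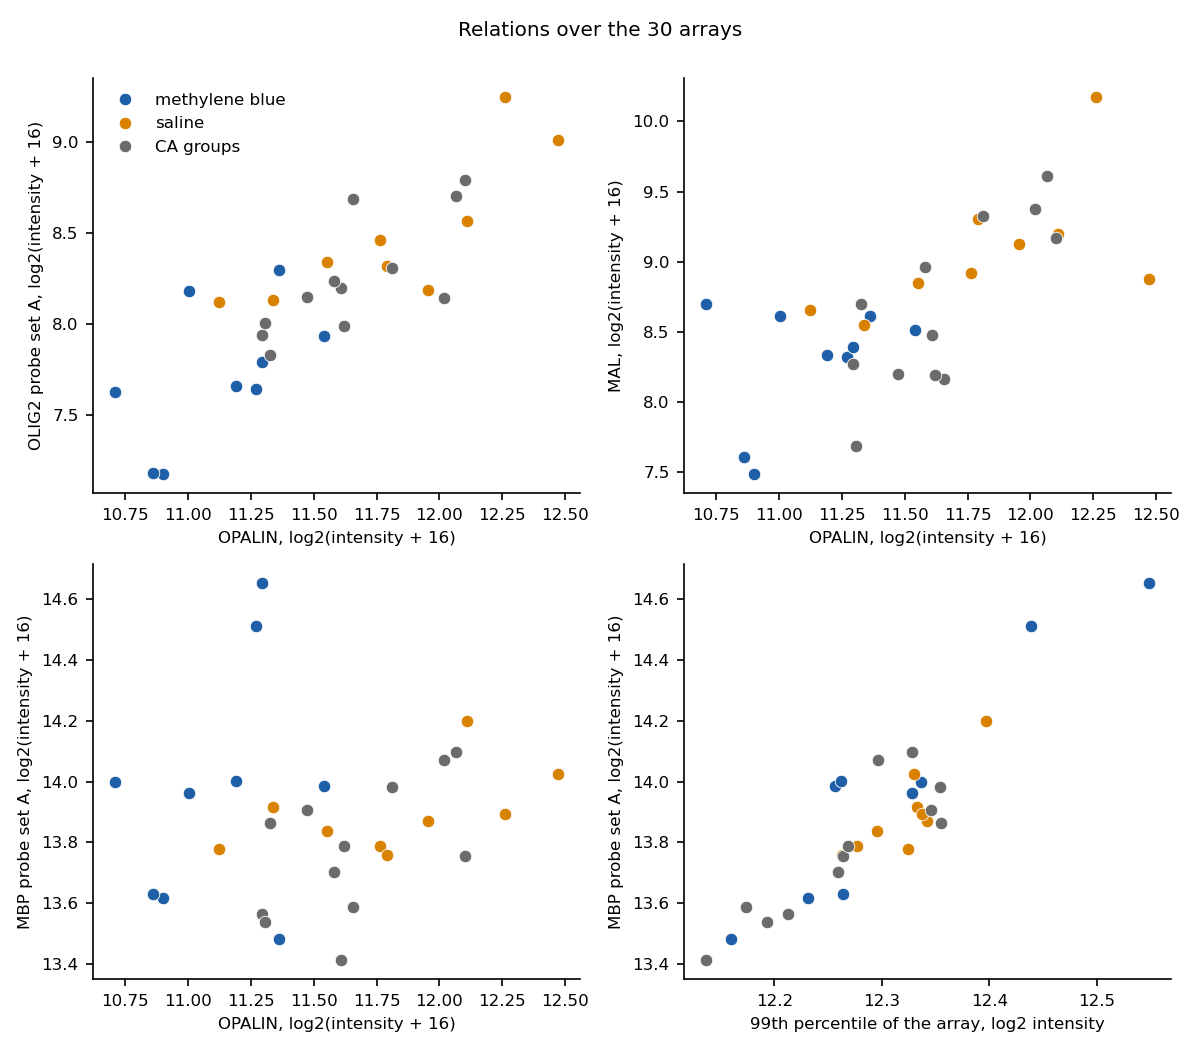
Each point is an array (9 methylene blue, 9 saline, 12 CA); axes are log2(intensity + 16), except the last x axis, the log2 of the array's 99th percentile of intensity. OLIG2 probe set A and MAL rose with OPALIN (r = 0.84 and 0.72), MBP probe set A did not (r = 0.12), and MBP rose with the 99th percentile (r = 0.91).

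The probe sets most like each gene over the 30 arrays were ranked by Pearson's r, as a description. For OPALIN they read JAM3 (0.91), VAMP3 (0.91), PLEKHB1 (0.91), PAQR6 (0.88) and QDPR (0.87). For deviations from the group means the leading ones were SLAIN1 (0.94), GOLGA7 (0.93), PLEKHB1 (0.91), JAM3 (0.90) and GLIPR2 (0.88). For OLIG2 probe set A they read CAPN2 (0.86), DNAJB2 (0.85), PLA2G16 (0.84), OPALIN (0.84) and WASF2 (0.84), and for deviations OPALIN (0.87), SLAIN1 (0.85), LAMP2 (0.85), PLEKHB1 (0.84) and ELOVL1 (0.84). OPALIN was thus the leading match of OLIG2 once group means were removed.

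For MAL the list was CERS2 (0.90), a synthase of very-long-chain ceramides, PLPP2 (0.85), 2 probe sets of GLIPR2 (0.84 each) and CYP51 (0.83), an enzyme of cholesterol synthesis. For deviations it was CERS2 (0.91), CYP51 (0.84), ADSSL1 (0.83), ELOVL1 (0.83), which elongates very-long-chain fatty acids, and FNTA (0.83). For MBP probe set A the list held cytoskeletal, translation, chaperone and iron storage genes, ACTG1 (0.95), EF1ALPHA (0.95), TUBA1B (0.94), HSP90AA1 (0.93) and TPT1 (0.93), with FTH1 (0.93) in place of TPT1 for deviations. After quantile normalization those 6 had an r between -0.21 and 0.39 with MBP, while the matches of OPALIN, OLIG2 and MAL kept an r of 0.56 or more.

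Of 46 other oligodendrocyte and myelin gene symbols, 24 were on the array and 23 were tested. Some of the 46 are aliases of the same gene (CA2 and CAR2, SEPT4 and SEPTIN4). In the mean methylene blue minus saline difference 4 of the 23 passed, all lower in the methylene blue groups, beside 25.2% of all tested probe sets that passed in either direction, and 19 of 23 had a value below 0. The median was -0.32 (log2), beside 0.02 over all tested probe sets. The 4 were GSN (gelsolin, an actin-severing protein) at -0.52 ± 0.14, TF (transferrin, the iron carrier that oligodendrocytes make) at -0.51 ± 0.15, CLDND1 at -0.31 ± 0.10 and CD9 (a tetraspanin) at -0.48 ± 0.16 (log2, SE), with adjusted p of 0.0072, 0.0169, 0.0249 and 0.0304. GSN, TF and CD9 are also made by other cells. TF averaged 5998 ± 1399 on the MB arrays and 8512 ± 1943 on the SAL arrays, and GSN 689 ± 77.4 and 1017 ± 281 (SD, n = 9 each).

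The other 19 genes did not pass, and examples chosen after their values were seen follow. MAG, the axon-facing adhesion protein of myelin, had -0.44 ± 0.23, PLLP (plasmolipin) -0.52 ± 0.19, FA2H, which makes hydroxylated myelin lipids, -0.50 ± 0.23, and MOBP -0.22 ± 0.14 (log2, SE), with adjusted p of 0.155, 0.0510, 0.112 and 0.243. CNP, an enzyme of uncompacted myelin, had the lowest value and the widest error, at -0.74 ± 0.53 (adjusted p = 0.313). CLDN11, the tight junction protein of myelin, had -0.09 ± 0.13, and the lineage factors OLIG1 and SOX10 had -0.33 ± 0.15 and 0.02 ± 0.22 (adjusted p = 0.663, 0.104 and 0.960). The values above 0 belonged to SOX10, SIRT2, TSPAN2 and BCAS1. With the 3'/5' ratio as a covariate the median of the 23 was -0.13 and 0 passed, and without the 4 arrays of high ratio it was -0.21 and 0 passed.

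**Figure D5:**
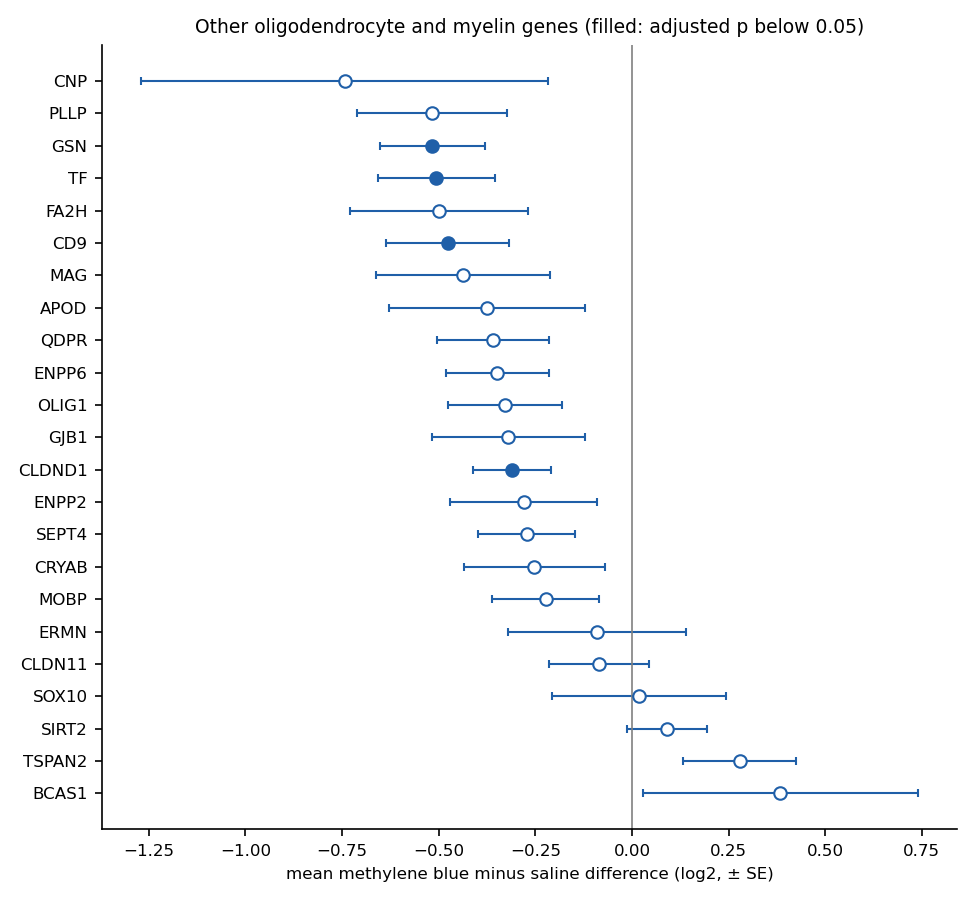
Mean methylene blue minus saline difference (log2, x axis) with its standard error for the 23 other tested oligodendrocyte and myelin genes, 1 probe set a gene; filled points have an adjusted p below 0.05. GSN, TF, CLDND1 and CD9 are filled, and 19 of the 23 lie below 0.

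In the single comparisons none of the 23 passed, and their medians are given beside the 3 genes with the smallest p. In MB30 against SAL30 the median was -0.35, with CLDND1 at -0.45, MAG at -0.79 and GSN at -0.42 (adjusted p = 0.132, 0.246 and 0.302). In MB60 against SAL60 it was -0.49, with GSN at -0.69, CLDND1 at -0.45 and ENPP6 at -0.57 (adjusted p = 0.129, 0.174 and 0.197). In MB180 against SAL180 it was -0.07, with TF at -0.59, GSN at -0.44 and PLLP at -0.50 (adjusted p = 0.227, 0.324 and 0.447). The list median was thus furthest from 0 at 60 min and near 0 at 180 min, and for all 23 the test of a difference varying between times gave an adjusted p of 0.999903, the smallest unadjusted ones being those of FA2H, CLDND1 and SIRT2 (0.150, 0.160 and 0.302).

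Against CA0 the median of the list was -0.17, 0.06 and -0.02 in CA5, CA20 and CA30, 0.14, 0.20 and -0.03 in SAL30, SAL60 and SAL180, and -0.17, -0.29 and -0.16 in MB30, MB60 and MB180. These comparisons share the CA0 arrays. Leading the untreated arrest groups were SIRT2 (-0.30), TSPAN2 (0.30) and MAG (-0.40) in CA5, ENPP2 (0.53), SIRT2 (-0.23) and GJB1 (0.39) in CA20, and TSPAN2 (0.61), QDPR (-0.38) and TF (-0.28) in CA30, all with an adjusted p of 0.985 or more. In the saline groups BCAS1 (-1.54), CLDND1 (0.33) and OLIG1 (0.33) led at 30 min, BCAS1 (-2.37), CLDND1 (0.22) and APOD (0.54) at 60 min, and GJB1 (0.71), SIRT2 (-0.30) and FA2H (-0.45) at 180 min, with adjusted p of 0.168 or more. In the MB groups BCAS1 (-1.36), QDPR (-0.39) and FA2H (-0.49) led at 30 min, BCAS1 (-1.54), QDPR (-0.60) and FA2H (-0.79) at 60 min, and TF (-0.58), QDPR (-0.52) and TSPAN2 (0.42) at 180 min, with adjusted p of 0.0965 or more. In the test over all 10 groups BCAS1 was the 1 of 23 that passed (adjusted p = 0.0412, with CLDND1 at 0.224 and GSN at 0.228), beside 15.3% of all probe sets. BCAS1 marks oligodendrocytes that are starting to make myelin, and it ran from 4.22 to 342 over the 30 arrays.

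The relation of each member to this list was described by its r with the 23 genes. The median r of the 23 genes was 0.67 with MAL, 0.68 with OPALIN and 0.62 with OLIG2 probe set A, against 0.24 with MBP probe set A, 0.16 with MBP probe set B and 0.02 with MBP probe set C. For deviations from the group means it was 0.73, 0.73 and 0.68, against 0.38, 0.28 and 0.22. The median over all tested probe sets was between -0.04 and 0.04 in each case. These are descriptions across genes of the same arrays, and genes are not independent replicates.

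Markers of other cells of the cortex were counted in the same comparison, in which 25.2% of all tested probe sets passed. The summed intensity of the 23 oligodendrocyte and myelin genes ran from 33641 to 58254 on the MB arrays (median 48296) and from 40473 to 71669 on the SAL arrays (median 57641). That of 14 neuronal markers ran from 54635 to 86299 (median 68411) and from 49846 to 68628 (median 62564). The CA arrays ran from 39255 to 72810 for the first list and from 57583 to 75399 for the second. In the mean methylene blue minus saline difference the median was 0.11 for neurons (2 of 14 higher), 0.10 for astrocytes (2 of 10 higher, 1 lower), 0.08 for endothelium (2 of 12 higher), 0.05 for smooth muscle and pericytes (1 of 7 higher) and 0.38 for meninges (3 of 6 higher). It was -0.19 for 4 oligodendrocyte precursor markers (0 passed) and -0.25 for 6 microglial markers (1 lower). The precursor markers include OLIG1 and SOX10, which are also among the 23 genes, so that median is not a separate observation. With 2 or fewer genes each, choroid plexus, blood and Schwann cell markers had medians of 0.36, 0.09 and -0.11 and none passed. Of all 16799 tested probe sets 2313 passed as higher and 1918 as lower in this comparison, 25.2% together. No oligodendrocyte or myelin gene tested was at 0 on any array. The part of cell composition in the differences of MAL, OPALIN and OLIG2 was not tested.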

How the data were processed

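The deposited values are intensities on a linear scale, 1 value per probe set and array, which the authors made with GCOS, per the submitters' processing notes. Neither its version nor the signal algorithm is stated in the sources used here. The mean without the lowest and highest 2% of values was 299.9 on every array. Gene symbols came from the platform's annotation, in which 10069 probe sets had 1 symbol, 198 several and 13732 none. No sequence or genome position was used.

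Values were analysed as log2(intensity + 16), so fold changes of dim probe sets are understated. Control probe sets (124) were left out, as were those with a mean below the 30th percentile (intensity about 29.5), which left 16799. The tests used limma 3.58.1 (R 4.3.3), in 1 fit of 10 group means with an intensity trend, 20 residual degrees of freedom and two-sided tests. Benjamini-Hochberg adjustment ran over all probe sets within each comparison, at 0.05. The p-values measure the spread between the 3 animals per group, whose number limits the precision. Errors of log2 differences are standard errors of the fit. Correlations used 100000 permutations, within groups for deviations from group means. The pipeline was tested on simulated data.

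The 4 genes, the lists and the comparisons were chosen with earlier results of these data known. All probe sets of the 4 genes are reported. Of the other oligodendrocyte and myelin genes the 3 with the smallest p per comparison are named, or all that passed, and others as examples were chosen after their values were seen. The 5 most similar probe sets with 1 symbol are named per gene. A gene with several probe sets is represented by the one of highest mean. Alternatives were other pseudocounts (1, 64) and filters (none, 50th percentile), quantile normalization, median centring, only the compared groups, no trend, array weights, a replicate block, the 3'/5' ratio as a covariate, adjustment over all comparisons, and each array left out.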

Additional observations from a re-analysis of the deposited data

Results flagged for a closer look

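MBP probe set D lay below the filter and entered no comparison of the report, yet all its arrays in 2 groups lay above all CA0 arrays. It read 16.4, 29.2 and 42.2 in MB60 (mean 29.2) and 30.6, 49.6 and 30.4 in MB180 (mean 36.9), against 1.43, 11 and 16.3 in CA0. The gap between MB60 and CA0 was narrow, 16.4 beside 16.3. The share of all probe sets whose arrays separate from CA0 in this way was not counted. In a limma fit without the filter the difference from CA0 was 0.83 ± 0.34 for MB60 and 1.07 ± 0.34 for MB180 (log2, SE), with adjusted p of 0.127 and 0.0551, so neither passed. The filter stood at an intensity of about 29.5.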

How the results depend on the processing

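Under the 13 alternatives and each array left out, the mean methylene blue minus saline differences of MAL, OPALIN and OLIG2 probe set A stayed below 0, from -0.88 to -0.36, -0.79 to -0.46 and -0.86 to -0.63. The count of members called there was 0 with the 3'/5' covariate and 3 to 4 with an array left out, MAL coming closest to the threshold (-0.63, adjusted p = 0.0499, without SAL180 replicate 3) and MBP probe set C being added without SAL30 replicate 1 (0.42, adjusted p = 0.0450). MAL also lost its call with adjustment over all comparisons (adjusted p = 0.0653). With array weights MBP probe set C passed too (0.40, adjusted p = 0.0407). Median centring shifted all differences from CA0 by -0.18 in MB30, -0.13 in MB60 and -0.17 in MB180; OLIG2 probe set A then passed in MB30 (-0.86, adjusted p = 0.0415) and MB60 (-0.86, adjusted p = 0.0435), while MBP probe set C lost its call in MB60 (0.68, adjusted p = 0.0578), which left that count at 1. The MB60 against CA0 count was 0 with a pseudocount of 64, no filter, quantile normalization, the replicate block, the covariate or adjustment over all comparisons. The MB30 against CA0 count was 2 after median centring and 0 with the covariate; MB180 against SAL180 was 1 with array weights; SAL30 against CA0 was 1 with adjustment over all comparisons; the F test over groups gave 3 with median centring, 2 with array weights and 0 with the covariate. With an array left out the counts ran from 0 to 1 in SAL30 and MB60 against CA0 and in MB30 against SAL30, and from 1 to 2 in MB30 against CA0 (MBP probe set B added without MB30 replicate 1, 0.77, adjusted p = 0.0476) and the F test (2 without SAL30 replicate 3). Without CA0 replicate 2, MBP probe set C passed in SAL30 (1.39, adjusted p = 0.0329), and without SAL30 replicate 3 OPALIN passed in MB30 against SAL30 (-0.98, adjusted p = 0.0397). MBP probe set A turned to -0.16 after quantile normalization. Its r with MAL, not passing at 0.26, was 0.52 for deviations, 0.73 after quantile normalization, 0.52 without the 2 farthest arrays and 0.59 without the MB arrays; with OPALIN it was 0.83 after quantile normalization and 0.54 without the MB arrays; with OLIG2 it was 0.79 after quantile normalization. With the dim OLIG2 probe set B, r was 0.50 for MBP probe set C, -0.11 for MAL and -0.017 for OPALIN. Replicate numbers did not pair the samples: the median correlation of same-numbered arrays' deviations was -0.003 (28 of 135 pairs over 0.1, 8 of 30 arrays closest to their own number). The replicate block moved the MB60 against CA0 count to 0 (MBP probe set C, adjusted p = 0.0550) and no other count. The cause was not tested.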
